A study of Mus musculus with 8 samples.

Results

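The unfolded protein response was described by 10 genes, Atf6, Ern1, Xbp1, Eif2ak3, Atf4, Ddit3, Trib3, Chac1, Herpud1 and Hyou1. They were chosen by name and not by a cut on their values, though with earlier results of these data known. They were matched to every probe set whose annotation held 1 of these names as its single gene symbol. This gave 28 of the 45101 probe sets of the array, with 1 to 5 probe sets per gene, and 10 of the 18193 genes that could be named. The cells were sorted straight from femoral fracture calluses of male C57/Bl6 mice aged 10 to 12 weeks, without culture. Skeletal stem cells (SSCs, 4 arrays), the self-renewing cells of the skeletal lineage, were gated as positive for CD51 and CD200 and negative for CD45, Ter119, Tie2, 6C3, Thy1 and CD105. Bone-cartilage-stromal progenitors (BCSPs, 4 arrays), which descend from them, were gated in the same way but as positive for CD105 and without regard to CD200. CD105 thus separates the populations by gate, and CD200 was required of SSCs only. Each of 4 experiments yielded 1 array of either population from 10000 sorted cells. No uninjured animal and no treatment is part of the comparison, so both groups carry the fracture. The labels place the harvest at day 7 after injury and the methods at day 10.

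The unfolded protein response senses misfolded protein in the endoplasmic reticulum (ER) through 3 membrane proteins. PERK, encoded by Eif2ak3, phosphorylates the translation factor eIF2α, which lowers translation in general but favours that of ATF4, a transcription factor that in turn activates the gene of CHOP, Ddit3. IRE1, encoded by Ern1, splices the mRNA of the transcription factor XBP1, and ATF6 is itself a transcription factor that is released from the ER membrane by cleavage. Chondrocytes and osteoblasts secrete large amounts of collagen and depend on this response. An array score is read from mRNA alone, and neither phosphorylation, splicing, cleavage nor translation was measured here.

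The deposited value is an activity score in points, from about -100 (inactive) to +100 (active), which places a probe set within its own range over public mouse arrays. The threshold of each probe set is 0, and a score above 0 is called active here. Scores of different genes therefore compare their places in their own ranges, not amounts of mRNA. Each gene stands here for the probe set that scored highest on average, and its other probe sets are given as well. On the arrays 29.0% to 31.0% of probe sets were active. The 95th percentile of 25 genes of unrelated tissues lay between -16.6 and -2.75. All 7 measured skeletal markers, among them Sox9, Col2a1 and Cd200, were active on all 8 arrays. None of 10 endothelial markers was above 0 on any array. Of 10 macrophage and neutrophil markers, Laptm5 alone was above 0, on 3 SSC arrays. Of 5 erythroid markers Hba-a1 alone was, on 5 arrays. Of 8 markers of B cells and of plasma cells (the latter rely on Xbp1), Sdc1 was active on all arrays and Ighm on 1. Jchain, Mzb1 and Cd79a were below 0 on every array. The 13 early response genes, which are known to be induced by tissue digestion, were active on all arrays, with array medians from 87.7 to 96.2. Undigested cells were not analysed here, and the part of digestion in the scores below was not tested.

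Of the 10 genes, 9 were active throughout and Hyou1 nowhere, where 25.0% of all genes were active on 8 of 8 arrays and 43.5% on 0. The median of the 10 mean scores was 63.8 points, and that of all genes -18.4. Counted by probe set, 12 of 28 (42.9%) were active throughout, 11 on some arrays and 5 nowhere, against 16.1% throughout and 49.5% nowhere among all probe sets. In sorted cells measured in bulk, fewer cells with an mRNA and less of it per cell cannot be told apart.

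In the PERK arm, Eif2ak3 and Atf4 lay highest of the 10 genes, and Ddit3 lay below the genes of the IRE1 arm. Eif2ak3, the kinase, scored 98.2, 97.9, 97.7 and 98.0 in SSCs of experiments 1 to 4 and 98.3, 98.2, 98.2 and 98.8 in BCSPs. All 8 values lay close to the upper limit of the score, where a difference can hardly show. Atf4 scored 91.9, 85.7, 96.4 and 93.5 in SSCs and 91.8, 89.4, 96.1 and 94.9 in BCSPs. In both populations its lowest value was that of experiment 2 and its highest that of experiment 3. Ddit3, whose protein CHOP is linked to cell death under lasting ER stress, scored 72.3, 40.2, 65.0 and 56.6 in SSCs and 74.0, 15.5, 36.6 and 68.8 in BCSPs. The arrays of experiment 1 were the highest and that of BCSPs in experiment 2 the lowest, and the populations overlapped. The second Ddit3 probe set ranged from -48.8 to 25.5, with a mean of -0.200 and 5 arrays above 0. SSC minus BCSP was -18.4 points for it and 9.82 for the first.

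In the IRE1 arm, Ern1 scored 73.2, 58.5, 71.2 and 62.7 in SSCs and 65.4, 49.5, 66.8 and 80.4 in BCSPs. In either population the array of experiment 2 was the lowest. Xbp1 scored 64.4, 66.8, 54.2 and 78.4 in SSCs and 68.8, 75.3, 52.9 and 63.7 in BCSPs, with both arrays of experiment 3 below all others. Its mRNA was thus scored as active on every array, and the score does not tell the spliced from the unspliced form.

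Atf6, the single gene of its arm, scored 65.7, 20.5, 17.3 and 49.7 in SSCs and 49.4, 64.2, 19.8 and 38.4 in BCSPs. Both arrays of experiment 3 were low, whereas in experiment 2 the SSC array was low and the BCSP array high. The 2 other probe sets of Atf6 did not follow. One ranged from -12.6 to 24.1 over the 8 arrays and the other from -78.9 to -8.94.

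**Figure D1:**
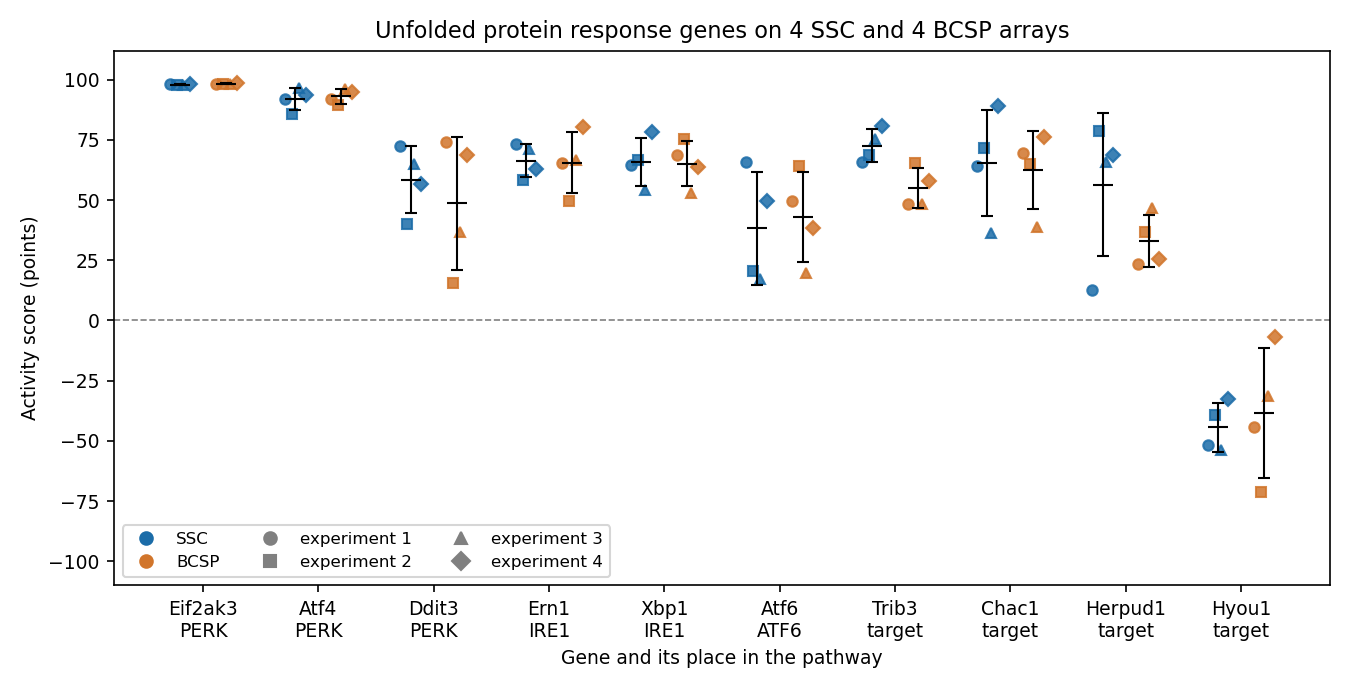
Activity score in points (vertical axis) of the 10 genes on 4 SSC (blue) and 4 BCSP (orange) arrays, with a symbol per experiment; black marks show each mean with its SD, and the dashed line is the threshold of 0. All genes but Hyou1 lie above 0 on every array, and Trib3 is the gene whose populations do not overlap.

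Set side by side, the arms kept 1 order on most arrays. The mean score of the PERK genes (Eif2ak3, Atf4, Ddit3) was 82.8 ± 5.81 (SD, n = 4) for SSCs and 80.0 ± 9.67 (SD, n = 4) for BCSPs. That of the IRE1 genes (Ern1, Xbp1) was 66.2 ± 4.09 (SD, n = 4) and 65.3 ± 5.38 (SD, n = 4). Atf6 alone stands for its arm, at 38.3 ± 23.4 (SD, n = 4) and 42.9 ± 18.7 (SD, n = 4). PERK exceeded IRE1 on 8 of 8 arrays, by 5.33 to 23.7 points with a mean of 15.7 ± 5.80 (SD over 8 arrays). PERK exceeded ATF6 on 8 of 8 arrays, by 3.56 to 69.1 points. IRE1 exceeded ATF6 on 7 of 8, the exception being BCSPs of experiment 2 at -1.77 points. The arms differed little between populations: SSC minus BCSP was 2.74 points for PERK, 0.824 for IRE1 and -4.63 for ATF6, each less than the SD within a population. No test is given for these means, because the genes were chosen with results of these arrays known.

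The order of the arms rested on which probe sets stood for the genes. With Eif2ak3 taken from the mean of its other probe sets, PERK minus IRE1 was -26.1 points, with PERK above IRE1 on 0 of 8 arrays, and PERK minus ATF6 was -0.989. With the median of all probe sets of an arm (8 for PERK, 9 for IRE1, 3 for ATF6), PERK minus IRE1 was -10.1 points and PERK lay above IRE1 on 2 of 8 arrays. IRE1 lay above ATF6 on average under every setting tried.

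**Figure D2:**
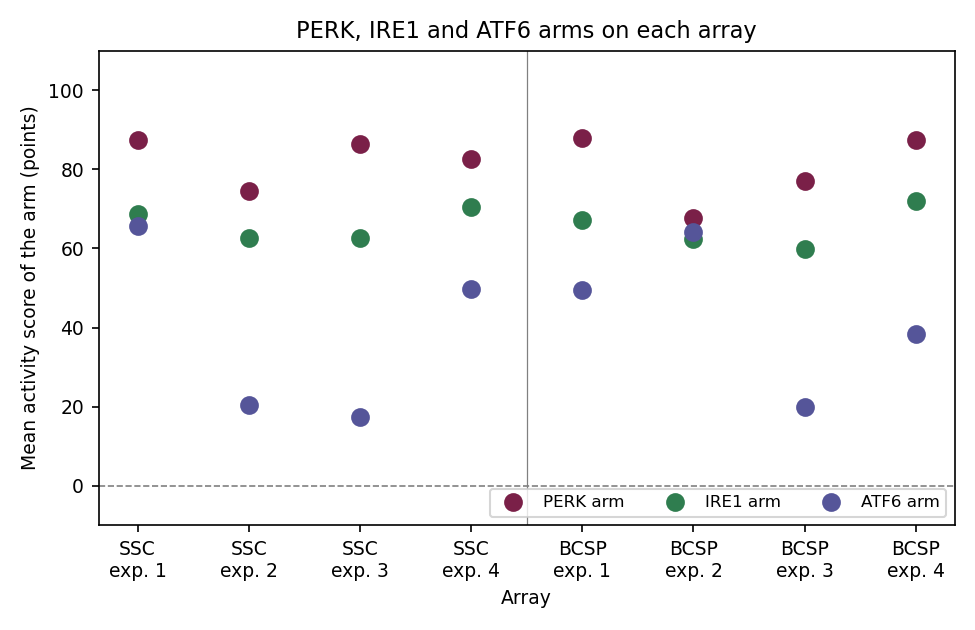
Mean activity score in points (vertical axis) of the PERK, IRE1 and ATF6 genes on each of the 8 arrays (horizontal axis), with each gene read from its highest probe set. The PERK points lie above the IRE1 points on all arrays, and the ATF6 points spread from 17.3 to 65.7.

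The remaining genes are targets of the pathway. Trib3 encodes a pseudokinase that is induced by ATF4 and CHOP. It scored 65.7, 68.6, 75.2 and 80.9 in SSCs and 48.2, 65.3, 48.5 and 57.7 in BCSPs, so that every SSC array lay above every BCSP array. Chac1, an ATF4 target whose enzyme degrades glutathione, scored 64.1, 71.8, 36.1 and 89.0 in SSCs and 69.5, 65.1, 39.0 and 76.3 in BCSPs. Both populations were low in experiment 3 and high in experiment 4. Herpud1, an ER membrane protein of the machinery that degrades misfolded proteins, scored 12.8, 78.6, 65.6 and 68.8 in SSCs and 23.5, 36.7, 46.7 and 25.6 in BCSPs. Both arrays of experiment 1 were low, and 3 of the 4 SSC arrays lay above all BCSP arrays. Hyou1, an ER chaperone of the Hsp70 superfamily, scored -51.9, -39.2, -53.9 and -32.5 in SSCs and -44.2, -71.2, -31.5 and -6.82 in BCSPs. These values were below 0 throughout, and 1 of 8 lay above the 95th percentile of the unrelated genes on its array. The other Hyou1 probe sets were lower still, from -99.2 to -81.7.

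RefSeq promoters (GRCm38.p6, 250 bases before to 50 after the start site) were given for 8 of the 10 genes and searched on both strands for elements of the response. The ER stress element II bound by ATF6 and XBP1, ATTGG and CCACG with 1 base between them, was in 0.0365% of all 32851 promoters and in 1 of the 8, that of Herpud1. The ER stress element, CCAAT and CCACG with 9 bases between them (0.119% of all promoters), the core TGACGTGG of the unfolded protein response element (0.676%) and the C/EBP-ATF element TGATGNAAT (0.965%) were in 0 of the 8. TGATGCAA, a shorter form of the last, was searched only after the sequences had been seen. It was in 0.895% of all promoters and in those of Chac1 and Herpud1. No 2 of these matches overlapped. The 250 bases before the start site are shown 5′ to 3′ for Trib3, the gene whose populations did not overlap, and for both genes with a match, which is in capitals.
Trib3, chr2:152344061-152344310, minus strand: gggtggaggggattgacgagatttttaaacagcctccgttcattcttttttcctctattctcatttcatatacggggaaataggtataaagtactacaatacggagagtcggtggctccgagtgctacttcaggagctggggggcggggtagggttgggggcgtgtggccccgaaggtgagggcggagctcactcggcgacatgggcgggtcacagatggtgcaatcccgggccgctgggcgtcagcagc
Chac1, chr2:119350992-119351241, plus strand: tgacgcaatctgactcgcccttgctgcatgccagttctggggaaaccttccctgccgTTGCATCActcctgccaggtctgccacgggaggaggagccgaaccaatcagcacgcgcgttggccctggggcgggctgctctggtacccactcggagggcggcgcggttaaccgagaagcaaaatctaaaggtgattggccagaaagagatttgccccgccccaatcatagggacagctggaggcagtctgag
Herpud1, chr8:94386179-94386428, plus strand: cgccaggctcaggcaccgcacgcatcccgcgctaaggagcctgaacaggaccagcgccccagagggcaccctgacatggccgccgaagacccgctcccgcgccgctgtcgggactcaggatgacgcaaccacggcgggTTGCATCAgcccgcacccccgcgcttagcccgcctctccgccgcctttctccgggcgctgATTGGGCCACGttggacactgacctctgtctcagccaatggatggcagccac
In Herpud1 the ER stress element II spans bases -52 to -42 from the start site and the shorter C/EBP-ATF form bases -112 to -105. In Chac1 the latter spans bases -193 to -186. A match describes these letters and does not show that a factor binds there.

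The genes were ordered by the mean score of their highest probe set, and no other choice of probe sets was tried for this order. Eif2ak3 (98.2) came first, then Atf4 (92.5), Ern1 (66.0), Xbp1 (65.6), Chac1 (63.9), Trib3 (63.8), Ddit3 (53.6), Herpud1 (44.8), Atf6 (40.6) and Hyou1 (-41.4). The place of Eif2ak3 rests on 1 probe set, as its others had means of -15.0 and -39.4. Eif2ak3 exceeded Atf4 on 8 of 8 arrays, Atf4 exceeded Ern1 on 8 of 8, and Atf6 exceeded Hyou1 on 8 of 8. The neighbours from Ern1 down to Atf6 changed places between arrays, with the first of each pair higher on 3 to 5 arrays and mean differences within 1 SD of the differences over arrays.

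SSCs and BCSPs were then compared gene by gene with limma over all 18193 genes. None of the 10 genes passed at an adjusted p under 0.05, where 0% of all genes did. At an unadjusted p under 0.05 limma gave 1 of the 10, Trib3, against 465 of all genes (2.56%) and 1.10% with SSCs higher. The methods' t-test was run here with equal variances throughout, without the methods' corrections for unequal variances or non-normal values. It gave 440 of all genes at that level and 0 after adjustment. By mean, 6 of the 10 genes were higher in SSCs, and the median of the 10 differences was 0.824 points beside -0.998 over all genes.
Trib3 was higher in SSCs by 17.7 points (standard error 5.67, 95% confidence interval 4.82 to 30.5), with an adjusted p of 1 from limma and an unadjusted p of 0.0126. The difference was positive in 4 of 4 experiments, at 17.5, 3.35, 26.7 and 23.2 points. Populations without overlap and SSCs higher occurred in 0.544% of all genes, and SSCs higher in every experiment in 4.38%. Populations without overlap and SSCs lower, as in 0 of the 10 genes, occurred in 0.797%. The second probe set of Trib3 pointed the same way, with 49.3, 50.8, 32.3 and 62.1 in SSCs and 26.4, 47.2, -0.490 and 11.6 in BCSPs. Its populations overlapped, its difference was 27.4 points (limma over all probe sets, adjusted p = 1), and it was higher in SSCs in 4 of 4 experiments. Among the 28 probe sets, those of Trib3 were the 2 (7.14%) with SSCs higher in every experiment, against 5.43% of all probe sets. SSCs were lower in every experiment for 3 of the 28, 1 each of Atf6, Eif2ak3 and Hyou1, against 7.24% of all probe sets. Array medians of the 8 B and plasma cell markers were -60.2 to -37.1 in SSCs and -63.9 to -52.0 in BCSPs, those of the 10 macrophage and neutrophil markers -60.1 to -44.9 and -72.6 to -49.5, those of the 5 erythroid markers -64.1 to -49.7 and -83.5 to -46.0, and those of the 10 endothelial markers -84.2 to -78.2 and -78.4 to -37.2. Jchain, a plasma cell gene with the smallest p of its list, scored -45.0 in SSCs and -74.3 in BCSPs on average. It was below 0 on every array. By mean, 5 of the 8 B and plasma cell markers were higher in SSCs, and Cd79a, Cd79b and Ighm were lower. Of the 10 endothelial markers, 4 had an unadjusted limma p under 0.05, Sox17, Robo4, Cldn5 and Emcn, all lower in SSCs. The part of these cells in the Trib3 difference was not tested.
Herpud1 was higher in SSCs by 23.4 points (standard error 14.3, 95% confidence interval -9.16 to 55.9, adjusted p = 1 from limma). The difference was -10.6 points in experiment 1 and 41.8, 19.0 and 43.3 in the others. Without the SSC array of experiment 1 it was 37.9 points, with an unadjusted limma p of 0.00204 and an adjusted p of 1. That array went against the difference. Leaving out any other single array gave 16.0 to 27.9 points, with an unadjusted limma p of 0.117 to 0.332. The leukocyte marker Laptm5 was low on the SSC array of experiment 1. It scored -58.3, 73.9, 53.1 and 40.7 in SSCs and -7.70, -16.2, -1.72 and -35.1 in BCSPs. The other 9 macrophage and neutrophil markers were below 0 on every array and did not share this pattern. Among the SSC arrays, S100a8, S100a9 and Itgam were highest on that of experiment 1, Cd68 and Adgre1 lowest, and the rest in between. The part of such cells in the Herpud1 difference was not tested. The second Herpud1 probe set scored 58.2, 44.9, 7.08 and 58.4 in SSCs and 53.8, 58.5, 11.6 and 49.6 in BCSPs. It showed no such difference, at -1.24 points, and was low on other arrays than the first, those of experiment 3.
For the other genes the interval of the difference included 0. It was narrow for Eif2ak3 (-0.403 points, 95% confidence interval -2.94 to 2.13) and Atf4 (-1.20, -7.16 to 4.76), both near the upper limit. Eif2ak3 was lower in SSCs in 4 of 4 experiments, by less than 1 point in each, with an adjusted p of 1 from limma and from the methods' test. The interval reached from -14.6 to 16.4 for Ern1, from -14.2 to 15.7 for Xbp1, from -21.1 to 40.7 for Ddit3, from -24.1 to 29.7 for Chac1, from -36.4 to 27.2 for Atf6 and from -36.9 to 25.1 for Hyou1. These intervals leave out the pairing of arrays by experiment. When limma took that pairing into account, the interval was -7.16 to 12.7 for Chac1 and -10.3 to 29.9 for Ddit3. It was -12.0 to 13.8 for Ern1 and -10.2 to 11.8 for Xbp1. For Atf6 (-32.3 to 23.0) and Hyou1 (-35.5 to 23.6) it stayed wide. Differences within the paired intervals could not be seen with 4 arrays a side, and the result does not show that the populations are alike.

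**Figure D3:**
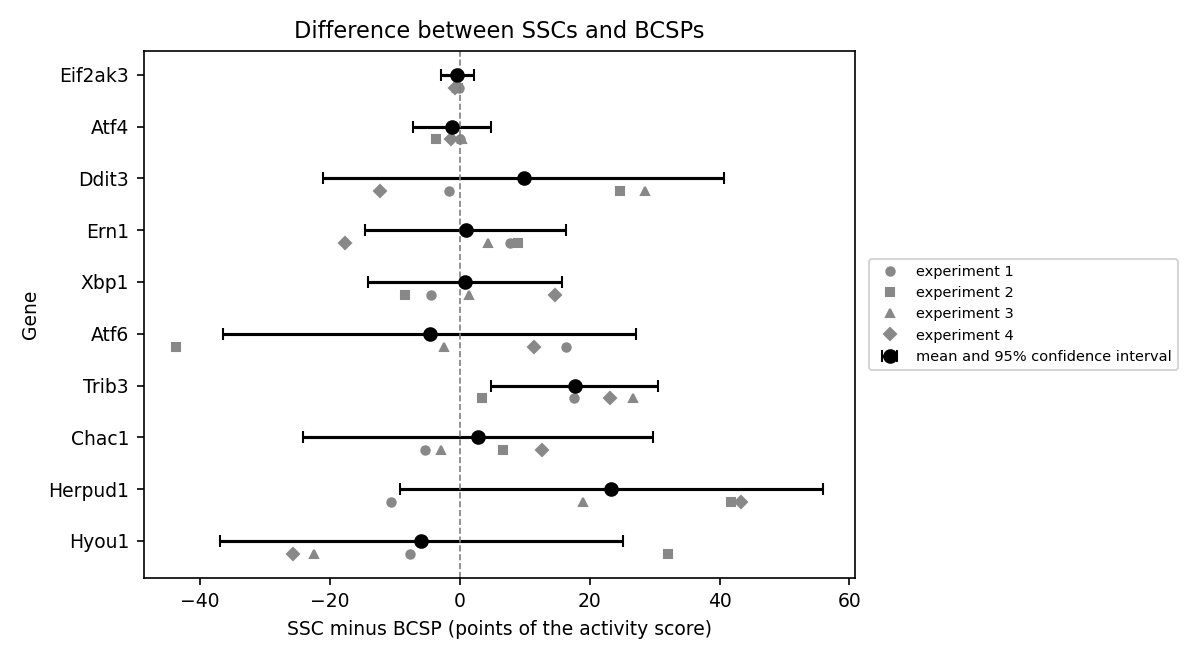
Difference in activity score, SSC minus BCSP in points (horizontal axis), for each of the 10 genes; black points and bars give the mean and the 95% confidence interval from limma, and grey symbols the 4 experiments. Trib3 is positive in 4 of 4 experiments, while no gene passed at an adjusted p under 0.05.

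The probe sets of 1 gene often disagreed. The gap between the highest and the lowest mean score was 138 points for Eif2ak3, 113 for Ern1, 84.3 for Atf4, 75.8 for Atf6, 53.8 for Ddit3 and 52.0 for Hyou1. It was 33.6 points for Xbp1, 28.9 for Trib3 and 2.02 for Herpud1, and Chac1 has a single probe set. The high Eif2ak3 level came from 1 of 3 probe sets. The other 2 ranged from -48.2 to 11.5 and from -89.3 to 13.5. For Ern1, 1 of 5 probe sets was active on all arrays and 1 on none. For Xbp1, 3 of 4 were active on all arrays, with means of 65.6, 59.4 and 33.5 points, and for Herpud1 both were. The Atf4, Trib3, Xbp1 and Hyou1 probe sets used here are marked as kinds whose probes can also bind other transcripts. Part of their score may come from related sequences, which was not tested. Another Atf4 probe set, without that mark, scored 65.4, 58.6, 6.44 and 82.3 in SSCs and 64.6, 67.0, -16.6 and 39.3 in BCSPs. The remaining Atf4 probe set had a mean of 8.19 and was above 0 on 4 arrays. With all probe sets of a gene averaged, 5 genes were active on all arrays, Xbp1, Atf4, Trib3, Chac1 and Herpud1.

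**Figure D4:**
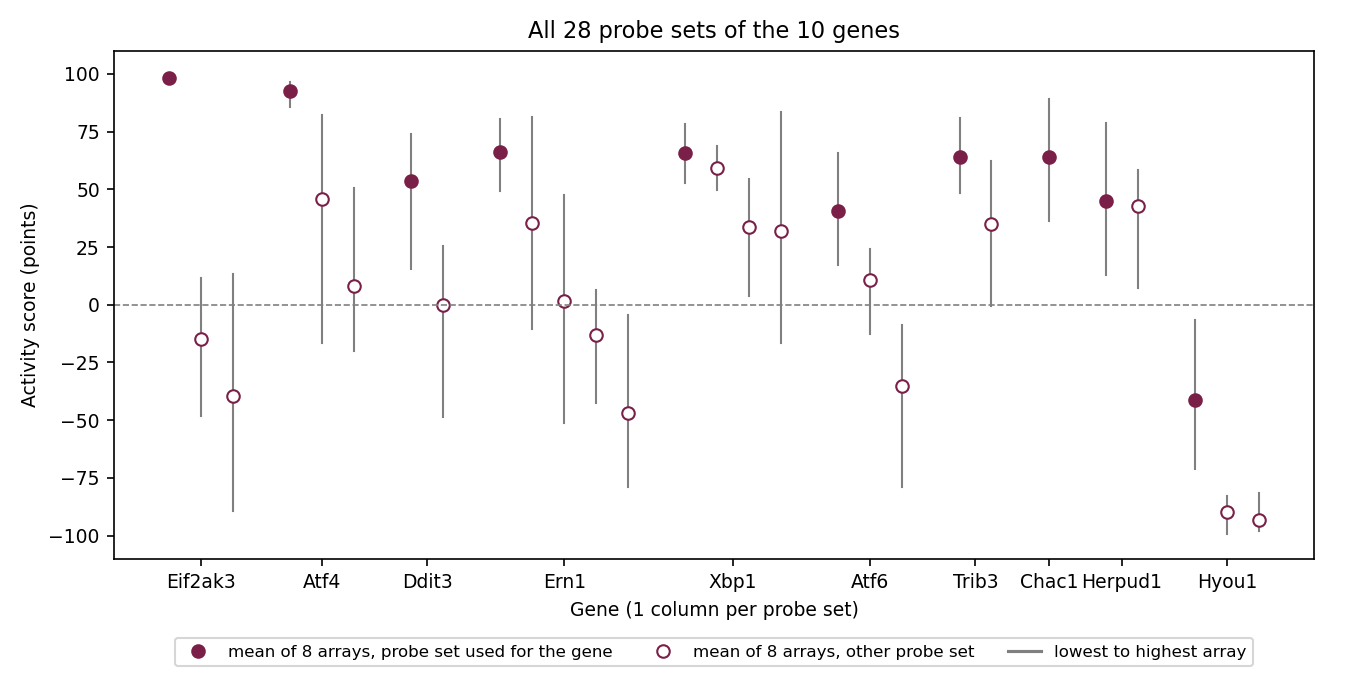
Activity score in points (vertical axis) of all 28 probe sets, grouped by gene; points give the mean of the 8 arrays, filled for the probe set that represents the gene, and grey lines run from the lowest to the highest array. Eif2ak3 and Ern1 show the widest gaps, and all 3 Hyou1 probe sets lie below 0.

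The genes also varied by experiment. In experiment 3 both arrays lay below all others for 10 of the 28 probe sets (35.7%), against 13.9% of all probe sets. These bases differ, as 49.5% of all probe sets were active on no array, beside 5 of the 28. The 10 low in experiment 3 belonged to Atf4, Atf6, Chac1, Ern1, Herpud1, Hyou1 and Xbp1. Some genes count more than once, and only for Atf6, Chac1 and Xbp1 was the representing probe set among the 10. The Atf4 probe set that represents the gene went the other way, with both arrays of experiment 3 above all others, as did 11.4% of all probe sets. Both arrays lay lowest for 2 of the 28 in experiment 1 (9.21% of all probe sets), 2 in experiment 2 (3.69%) and 1 in experiment 4 (3.48%). Both lay highest for 3 of the 28 in experiment 1 (11.3%), 0 in experiment 2 (3.64%) and 2 in experiment 4 (4.99%). Xbp1 shows the pattern in 3 of its 4 probe sets, of which 1 scored 5.58 in SSCs and 3.90 in BCSPs of experiment 3 and 31.9 to 54.7 on the other arrays. For actin, the score of the probe set at the 3′ end minus that at the 5′ end, a sign of shortened RNA or cDNA, was 59.6 and 64.9 points on the arrays of experiment 3 and 23.1 to 44.2 on the others. For Gapdh it was 54.7 and 49.1 against 21.3 to 71.9. The part of RNA length in the low scores of experiment 3 was not tested.

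Genes around the response were read from 6 lists, of which 86 genes were measured and 56 were active on all 8 arrays, beside 25.0% of all genes. None of the 86 passed limma between SSCs and BCSPs at an adjusted or an unadjusted p under 0.05, where 2.56% of all genes did at the latter. Of 18 ER chaperones and folding enzymes, 14 were active throughout and 2 nowhere, with a median of 86.2 points. Ppib, a prolyl isomerase of the collagen folding machinery, scored at least 99.8, Serpinh1, the collagen chaperone, at least 97.4, and P4hb, a disulfide isomerase and subunit of the collagen prolyl hydroxylase, at least 97.3. Sdf2l1 (mean -55.3) and Ero1b (-63.8) were below 0 on every array, as Hyou1 was. Pdia3, a disulfide isomerase, had the smallest p of the list, with SSCs at 75.8 ± 12.8 (SD, n = 4) and BCSPs at 64.3 ± 21.8 (SD, n = 4).
Of 15 IRE1 partners and XBP1 targets, 13 were active on all arrays, with a median of 92.5 points. Ssr1 and Ssr3, subunits of the translocon-associated complex, and Sec24d, a coat protein of vesicles leaving the ER, scored at least 99.4. Ern2, the IRE1 gene of gut epithelium, was below 0 on every array, and Traf2, an adaptor of IRE1, was above 0 on 5. Srp19, a subunit of the signal recognition particle, had the smallest p here, with SSCs at 83.9 ± 6.69 (SD, n = 4) and BCSPs at 91.9 ± 4.78 (SD, n = 4). Of 16 genes of ER-associated degradation, 10 were active throughout and 2 nowhere, with a median of 57.0 points. Selenos, Erlec1 and Edem3 were highest, with means of 99.9, 99.6 and 98.0, and Derl3 and Os9 lowest, at -41.9 and -27.3. Herpud2, a relative of Herpud1, had the smallest p, with SSCs at 50.3 ± 7.49 (SD, n = 4) and BCSPs at 64.9 ± 11.5 (SD, n = 4).
Around ATF6, 3 of 8 genes were active throughout and 3 nowhere. Creb3l2, an ER membrane factor known from cartilage, scored at least 97.7 and was active by both of its probe sets. Creb3 (mean 96.5) and Mbtps2 (88.6), a protease that cleaves ATF6, followed. Atf6b, the closest relative of Atf6, had a mean of -61.2 and Creb3l3, a factor of liver, one of -46.3. Of 7 genes around PERK, 3 were active on all arrays. Dnajc3, an inhibitor of PERK, had a mean of 90.2, Eif2ak4, the kinase that senses lack of amino acids, one of 50.5 with 7 arrays above 0, and Ppp1r15b, a phosphatase subunit that restores eIF2α, one of 39.8. Eif2ak1, the kinase that senses lack of heme, had a mean of -28.0 and Eif2ak2, the kinase that senses double-stranded RNA, one of 1.70. Of 22 ATF4 and CHOP targets, 13 were active throughout and 4 nowhere, with a median of 21.1 points. Stc2, Ero1a and Vldlr were highest, with means of 91.9, 91.7 and 88.5. Bcl2l11, a mediator of cell death, and Slc7a11, a cystine transporter, were lowest, at -53.1 and -46.5, and below 0 on every array.

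**Figure D5:**
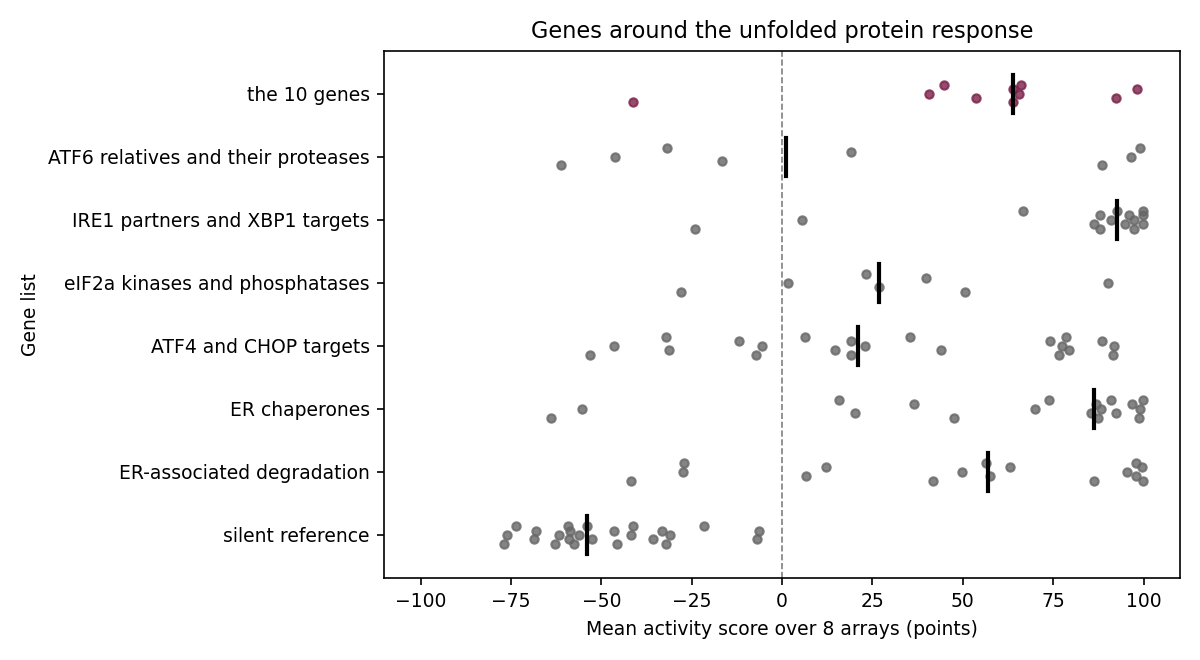
Mean activity score over 8 arrays in points (horizontal axis) of the 10 genes, of 6 lists of related genes and of 25 genes of unrelated tissues (silent reference); each point is a gene and black bars mark list medians. The XBP1 targets and ER chaperones have medians of 92.5 and 86.2, and the unrelated genes one of -53.9.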

How the data were processed

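Gene expression was analysed on 4 SSC and 4 BCSP arrays. The authors amplified the RNA, hybridized it to Affymetrix mouse arrays and used Gene Expression Commons to normalize them against a large set of public arrays; the deposited value is its activity score for each of 45101 probe sets, from -100.03 to 100. How probe values were combined is not stated in the methods or labels. Depth does not apply to arrays, and their number limits the precision.

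Of the probe sets, 34958 carried 1 gene symbol in the platform annotation, 932 carried several and 9211 were not listed. Matching to RefSeq changed 0 symbols. After leaving out 64 control probe sets, SSCs and BCSPs were compared over 18193 genes by a linear model without a block and a trended eBayes step (limma 3.58.1, R 4.3.3), p-values adjusted after Benjamini and Hochberg and called under 0.05. The fit was tested on simulated scores. No fold changes were computed, because the score is bounded. The labels do not name the animals, and a legend of the study gives different mice for the arrays of a population.

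The 10 genes, the related lists and the tests were chosen with earlier results of these data known. Besides the 10, the text names from each related list the 3 genes with the highest and the 2 with the lowest mean, and the gene with the smallest p. Of the marker lists it names the genes above 0 on an array, and others as examples. Some genes of the related and marker lists are not reported here, and each list is given by the number of its genes that were measured.

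Every one of the 4 experiments holds 1 array per population by its label. Where the title and the description of a BCSP array disagreed, the description, which matches the experiment, was followed. Deviations from the population means correlated between the arrays of an experiment at 0.399, 0.177, 0.572 and 0.183 across genes. Arrays of different experiments were not compared in this way, so the pairing rests on the labels. Blocking on the experiment was an alternative. Further alternatives were quantile normalization, centring, a filter on low scores, averaging the probe sets of a gene, a fit over probe sets, eBayes without trend, array weights, the methods' t-test and leaving out each array. Leaving out both arrays of an experiment, Eif2ak3 by its other probe sets and the shorter C/EBP-ATF motif were added after seeing the data.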

Additional observations from a re-analysis of the deposited data

Results flagged for a closer look

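Among 56 groups of 4 arrays (28 probe sets in both populations), 2 held an array whose distance from the others exceeded the Dixon limit, where chance gives about 1 in 20. A probe set of Xbp1 scored 5.58 on the SSC array of experiment 3 and 40.8 to 47.7 on the other SSC arrays. The representing probe set of Eif2ak3 scored 98.75 on the BCSP array of experiment 4 and 98.18 to 98.26 on the other BCSP arrays, a distance of under 1 point close to the upper limit.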

How the results depend on the processing

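No gene was called between SSCs and BCSPs under the 21 alternatives, 20 fitted with limma and 1 the methods' t-test, and 949 genes had an unadjusted p under 0.05 with the experiment as a replicate block, against 465 without it. The block changed no call and, with arrays balanced over experiments, cannot change a difference. The adjusted p of Trib3 under it was 0.928 from limma. Trib3 was higher in SSCs under all 21 alternatives, by 14.7 to 22.6 points, a direction that leaving out arrays could not turn because its populations do not overlap, with an unadjusted p under 0.05 in 19 of them and 0.0668 and 0.0601 without experiments 3 and 4. Herpud1 was also higher in SSCs under all 21, by 11.1 to 37.9 points. None of these settings used its second probe set alone, which gave -1.24 points.

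The number of genes active on all arrays was 5 when the probe sets of a gene were averaged and 9 under the other settings run for it. For PERK minus IRE1, the mean of probe sets gave 1.94 points, the PERK arm without Ddit3 29.6, with Trib3 and Chac1 8.62, the median of all probe sets -10.1, and Eif2ak3 without its high probe set -26.1. For PERK minus ATF6, the last 2 settings gave 15.7 and -0.989. These follow from the probe sets or genes averaged.

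Differences that no fit called changed sign as follows. Centring gave 0.02 points for Eif2ak3. The mean of probe sets gave 1.29 for Atf6, 10.3 for Atf4 and -4.30 for Ddit3. Array weights gave -2.21 for Ern1. Leaving out 1 array at a time, the range was -13.8 to 2.45 for Atf6, -4.48 to 5.84 for Ern1, -2.72 to 0.852 for Atf4, -3.37 to 4.68 for Xbp1, -5.13 to 12.5 for Chac1, -1.24 to 18.2 for Ddit3 and -16.9 to 4.61 for Hyou1. Without experiment 1, Ern1 was at -1.42. Without experiment 2, Atf6 was at 8.40 and Ern1 at -1.84. Without experiment 3, Ern1 was at -0.297. Without experiment 4, Xbp1 was at -3.86, Chac1 at -0.513 and Hyou1 at 0.657. The cause was not tested. Hyou1 did not pass the filter on low scores and has no value there.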
